A study of Homo sapiens with 12 samples.

Results

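Polycomb repressive complex 1 (PRC1) was examined through 9 of its subunit genes: the RING ligases RING1 and RNF2, the PCGF partners BMI1 and PCGF2, the polyhomeotic subunit PHC1 and the chromobox readers CBX2, CBX6, CBX7 and CBX8. They were taken by symbol from the deposited count table and are 9 of its 58735 genes. The RNA came from C4.2B, a human prostate cancer line of the LNCaP lineage that grows without androgen. Libraries of polyA RNA were made from 4 arms of 3 replicates (A, B and C): vehicle (DMSO), the AKT inhibitor ipatasertib at 0.25 µM (AKTi), the EZH2 inhibitor tazemetostat at 1 µM (EZH2i), and both (combination). Arms with tazemetostat were pretreated for 6 days, all cells were moved to medium with 10% charcoal-stripped FBS on day 0, which removes steroids including androgens, and RNA was taken after 24 hours. All 12 libraries are therefore of 1 cell line under androgen depletion. By the study's methods, cells were seeded into triplicate plates after the pretreatment, and no independent experiments are described. The p-values therefore measure the spread between these libraries only, not between independent experiments.

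Polycomb repression runs through 2 complexes. PRC2, whose catalytic subunit is EZH2, methylates histone H3 on lysine 27, and canonical PRC1 binds that mark through a CBX chromodomain. RING1 or RNF2, paired with a PCGF protein, then ubiquitinates histone H2A, while polyhomeotic proteins link PRC1 units into larger assemblies. In prostate cancer, EZH2 and several PRC1 subunits are known for high expression in advanced disease. The comparisons address how the mRNA of the PRC1 subunits stood when the enzyme that writes their mark, the AKT pathway, or both were inhibited.

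Library totals ran from 14133755 to 22276417 counts, and all 9 members were among the 16646 genes that passed the filter on low counts. All 9 luminal prostate markers were present, with at least 743 counts in every library, and their summed level was 3860 to 3990 CPM (counts scaled by library size) in DMSO and 8640 to 8830 in the combination. The defining basal marker KRT5 and the T cell marker CD3E had 0 counts in all 12 libraries. The other basal markers, KRT14 and TP63, had at most 7 and 1, and of the other leukocyte markers PTPRC had 0 to 20 counts and CD68 1 to 9. The summed level of the 3 leukocyte markers was 0.383 to 1.34 CPM in DMSO, 0.0694 to 0.361 with AKTi, 0.0669 to 1.28 with EZH2i and 0.241 to 0.633 with both. Of the fibroblast, endothelial and neuroendocrine markers, COL1A1 (59 to 383 counts), VWF (40 to 128) and SYP (18 to 44) were detected in every library, and the other 6 markers of those lists had at most 7. The summed level of the 3 fibroblast markers was 4.31 to 6.86 CPM in DMSO, 15.2 to 17.9 in EZH2i and 9.76 to 14.8 in the combination, and that of the 3 endothelial markers was 2.16 to 2.95, 5.72 to 6.48 and 5.06 to 7.37. The mitochondrial share of counts was 2.37% to 3.36% in DMSO, 3.93% to 4.29% with AKTi, 4.35% to 5.31% with EZH2i and 5.14% to 5.64% with both. The part of these shifts in the results was not tested, and fewer expressing cells and less RNA per cell cannot be told apart in bulk RNA.

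The PRC1 genes did not move as a block. PHC1 rose in every treated arm and CBX7 rose beside it, CBX2 fell in every treated arm, BMI1 and PCGF2 rose with EZH2i but were not called with AKTi, and CBX6 rose with each single agent and was lower with both than with either. All adjusted p-values are from edgeR's quasi-likelihood test with Benjamini-Hochberg adjustment over all 16646 genes, and a gene was called at an adjusted p under 0.05. In AKTi against DMSO 6 of 9 members were called, 4 higher and 2 lower, with 42.5% of all tested genes called (20.6% higher and 21.9% lower). In EZH2i against DMSO 8 members were called, 6 higher and 2 lower, with 64.1% of all genes called (32.6% higher and 31.5% lower). In the combination against DMSO 8 members were called, 6 higher and 2 lower, with 73.2% of all genes called (38.0% higher and 35.2% lower).

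With so many genes called, the share of members called is of limited weight, and the sizes and directions carry the description. The median log2 fold change of the members was 0.12 with AKTi, 0.33 with EZH2i and 0.45 with both, where the medians over all genes were 0.0070, 0.030 and 0.062. These 3 comparisons share their DMSO libraries. Scaling by library size alone moved the median of all genes in the combination to 0.26 and in EZH2i to 0.17, and by upper quartile to 0.25 and 0.15. The members' median in the combination moved as well, to 0.647 with library size alone and to 0.635 with upper quartile scaling. With library size alone the members' split became 7 higher and 1 lower in EZH2i (39.8% and 25.2% of all genes, 65.0% together) and 7 higher and 1 lower with both drugs (45.5% and 28.5%, 74.0% together). Upper quartile scaling gave these member splits too, but the matching shares of all genes are not given here, so those splits have no comparator.

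**Figure D1:**
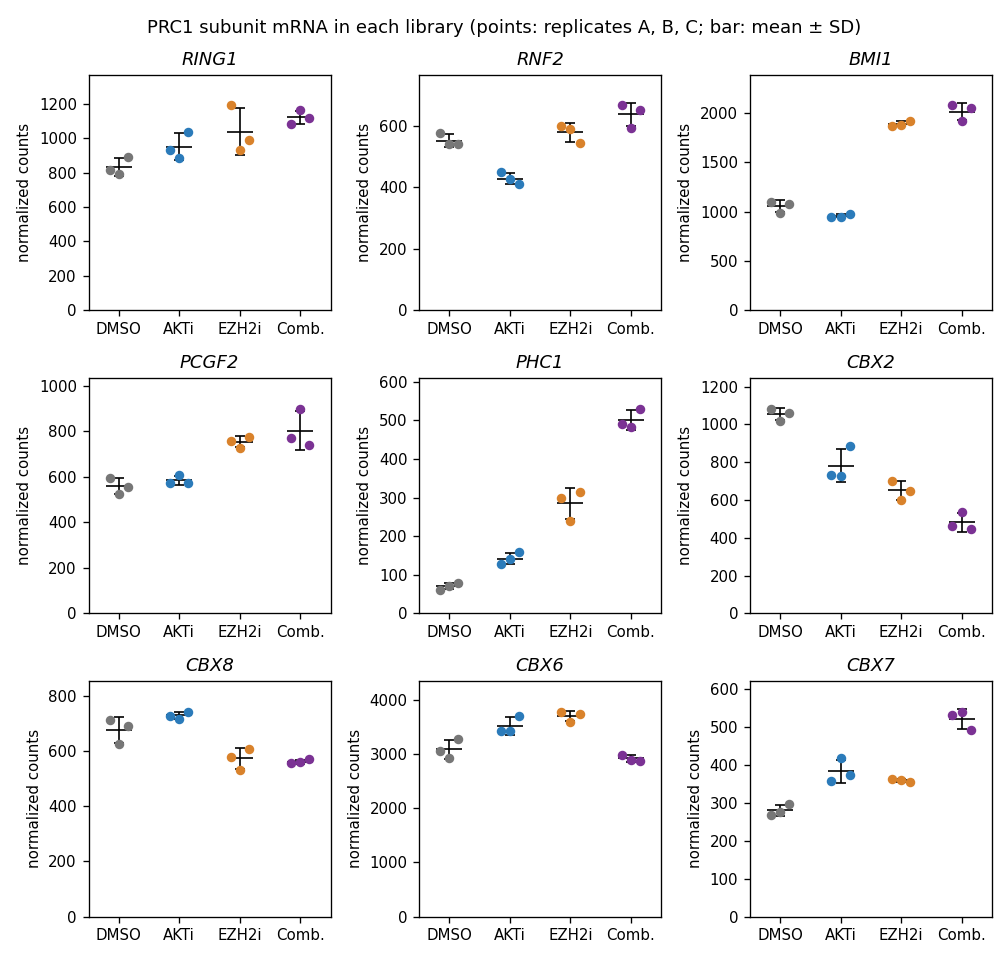
Normalized counts (vertical axis, from 0) of each PRC1 subunit gene in the DMSO, AKTi, EZH2i and combination arms (horizontal axis). Points are the libraries of replicates A, B and C and bars are the mean ± SD (n = 3). PHC1 climbs from 61.3 to 77.5 in DMSO to 482 to 530 in the combination, while CBX2 falls from 1019 to 1083 to 446 to 537.

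The largest change belonged to PHC1, which codes for a polyhomeotic protein that joins PRC1 complexes through its SAM domain. PHC1 (ENSG00000111752) lies at chr12:8913896-8941467 on the plus strand of hg38, as the files give it. PHC1 was at 61.3, 71.7 and 77.5 normalized counts in DMSO and at 127, 141 and 158 in AKTi. It was at 300.0, 240.0 and 315 in EZH2i and at 491, 482 and 530 in the combination. The 4 arms did not overlap: every AKTi library lay above every DMSO library, every EZH2i library above those, and every combination library above all others. The log2 fold change against DMSO was 1.02 ± 0.15 (SE) in AKTi (adjusted p = 6.86e-07), 2.02 ± 0.14 in EZH2i (adjusted p = 1.50e-15) and 2.84 ± 0.13 in the combination (adjusted p = 9.80e-21). The last of these, a 7.18-fold rise, ranked 635 from the top of the 16646 genes.

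Each drug moved PHC1 in the presence of the other as well. The combination exceeded AKTi by 1.83 ± 0.12 on the log2 scale (adjusted p = 9.05e-16) and exceeded EZH2i by 0.82 ± 0.11 (adjusted p = 8.51e-08). The interaction, which is the effect of ipatasertib with tazemetostat minus its effect without, was -0.20 ± 0.19 (adjusted p = 0.472) and was not called. Part of the PHC1 reads can be misassigned. The pseudogene PHC1P1 is 98.1% identical to PHC1 over 3061 transcript bases and had 18.2% as many counts as PHC1 in DMSO and 12.2% as many in the combination. The gene and pseudogene summed were at 5.12 ± 0.67 CPM in DMSO and 34.9 ± 2.4 in the combination (SD, n = 3), which is 6.81 times as high. M6PR, which codes for a mannose 6-phosphate receptor, lies on the opposite strand over 18.0% of PHC1 exonic bases and fell by 0.69 in the combination, and the strand setting of the counting is not given in the sources used here.

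The sequence upstream of the PHC1 starts is shown because this gene moved most and because its 2 RefSeq starts have unlike base composition. RefSeq gives 9 promoter entries for 7 of the members, each of 250 bases before and 50 after a start, and 3 sets of letters were searched on both strands of all 300 bases: the E-box CACGTG, the E2F-type letters TTTGGCGC, TTTCGCGC or TTTCCCGC, and the FOXO letters TGTTTAC. The E-box was in 7.26% of 35116 promoters of this length, the E2F-type letters in 2.74% and the FOXO letters in 3.42%. Capitals in the sequences below mark a match, printed 5′ to 3′ over the 250 upstream bases, and neither PHC1 entry held any.
PHC1 (upstream start, GRCh38.p14, chr12:8913593-8913842, plus strand): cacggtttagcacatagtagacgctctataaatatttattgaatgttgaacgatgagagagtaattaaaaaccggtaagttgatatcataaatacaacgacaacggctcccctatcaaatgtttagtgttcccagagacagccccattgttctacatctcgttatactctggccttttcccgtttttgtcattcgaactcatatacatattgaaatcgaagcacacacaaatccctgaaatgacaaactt
PHC1 (downstream start, GRCh38.p14, chr12:8914259-8914508, plus strand): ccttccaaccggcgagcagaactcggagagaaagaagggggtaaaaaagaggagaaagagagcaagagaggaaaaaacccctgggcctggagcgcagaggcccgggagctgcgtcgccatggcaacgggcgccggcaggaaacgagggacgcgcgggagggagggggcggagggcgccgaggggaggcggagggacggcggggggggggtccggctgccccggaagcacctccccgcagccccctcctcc
The upstream PHC1 window is 37.0% G and C with 10 CpG dinucleotides, where the median over all promoters is 58.7% and 14. The downstream window is 72.3% G and C with 28 CpG dinucleotides, at the upper quartile of all promoters for CpG. Gene counts cannot tell which start was in use.

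Of the ligases, RING1 and RNF2 carry the RING finger that transfers ubiquitin to histone H2A, and a given PRC1 holds one or the other. RING1 (ENSG00000204227) lies at chr6:33208495-33212722 on the plus strand of hg38, and RNF2 (ENSG00000121481) lies at chr1:185045364-185102608, also on the plus strand. RING1 was at 813, 790.0 and 891 normalized counts in DMSO and at 931, 887 and 1039 in AKTi. It was at 1191, 933 and 992 in EZH2i and at 1085, 1163 and 1120.0 in the combination. AKTi replicate B fell inside the DMSO range, whereas every EZH2i and combination library lay above it, and EZH2i replicate A was the highest of all 12.

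RING1 rose by a log2 fold change of 0.33 ± 0.08 in EZH2i (adjusted p = 4.24e-04) and 0.45 ± 0.08 in the combination (adjusted p = 3.14e-06). In AKTi it was 0.20 ± 0.08 higher (adjusted p = 0.0374). That AKTi call was lost with DESeq2 and with a filter of 1 count in total, and also without DMSO A (0.19), DMSO B (0.15), AKTi A (0.21), AKTi C (0.11) or EZH2i C (0.19), with adjusted p from 0.00751 to 0.350 over all alternatives. The combination exceeded AKTi by 0.25 ± 0.08 (adjusted p = 0.00564), a call lost without AKTi A (0.18) or AKTi B (0.18).

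RNF2 followed another course, falling with AKTi alone and not with AKTi on top of EZH2i. It was at 576, 540.0 and 540.0 normalized counts in DMSO, at 449, 426 and 412 in AKTi, at 601, 592 and 545 in EZH2i, and at 667, 595 and 651 in the combination. All 3 AKTi libraries lay below every other library, while the EZH2i range overlapped both DMSO and the combination. In AKTi RNF2 fell by 0.35 on the log2 scale (SE 0.08, adjusted p = 6.86e-04). In EZH2i it was 0.08 ± 0.08 higher (adjusted p = 0.409, not called, though called with library size alone or upper quartile scaling). In the combination it was 0.23 ± 0.08 higher than DMSO (adjusted p = 0.0102) and 0.58 ± 0.08 higher than AKTi (adjusted p = 1.08e-07). Against EZH2i it was 0.15 ± 0.08 (adjusted p = 0.114, not called), and was called at 0.20 with library size alone, 0.22 with upper quartile scaling and 0.18 with a filter of 10 counts in every library. The interaction was 0.51 ± 0.11 (adjusted p = 8.27e-04). The call against DMSO was lost with a filter of 1 count in total and without DMSO B (0.17), DMSO C (0.20), AKTi A (0.17) or combination A (0.19), with adjusted p from 1.2e-05 to 0.0887 over all alternatives.

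Of the PCGF partners, BMI1 (PCGF4), best known for repressing the INK4A locus and for stem cell self-renewal, followed EZH2 inhibition. BMI1 (ENSG00000168283) lies at chr10:22321211-22331484 on the plus strand of hg38. BMI1 was at 1100.0, 985 and 1082 normalized counts in DMSO and 950.0, 947 and 979 in AKTi. It was at 1872, 1882 and 1924 in EZH2i and 2077, 1922 and 2050.0 in the combination. The arms with tazemetostat stood clear above those without it, and each AKTi library lay below each DMSO library, by little. Combination replicate B fell just inside the EZH2i range.

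BMI1 rose by a log2 fold change of 0.85 ± 0.06 in EZH2i (adjusted p = 4.62e-15) and 0.95 ± 0.06 in the combination (adjusted p = 7.91e-17), a 1.94-fold rise. AKTi against DMSO was -0.13 ± 0.06 (adjusted p = 0.0951), and called without DMSO B at -0.20. The combination against EZH2i was 0.10 ± 0.06 (adjusted p = 0.151), and was called at 0.13 to 0.17 with library size alone, upper quartile scaling or a filter of 10 counts in every library. The interaction of 0.23 ± 0.09 (adjusted p = 0.0388) was lost in 9 of 19 alternatives, with adjusted p from 0.0109 to 0.195. They were the filter of 1 count in total (0.21) and the fits without DMSO A (0.19), DMSO C (0.21), AKTi A (0.20), AKTi B (0.25), EZH2i A (0.20), EZH2i B (0.22), combination A (0.21) or combination C (0.21). The readthrough gene COMMD3-BMI1, which shares 22.8% of BMI1 exonic bases on the same strand, had 1 count in all libraries together. COMMD3, the gene 903 bases upstream of BMI1 in the files, was at 0.07 ± 0.13 in the combination (adjusted p = 0.615).

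PCGF2 (MEL18), the closest relative of BMI1, rose less. PCGF2 (ENSG00000277258) lies at chr17:38733897-38749817 on the minus strand of hg38. It was at 595, 526 and 556 normalized counts in DMSO, 573, 607 and 574 in AKTi, 757, 727 and 775 in EZH2i, and 770.0, 899 and 739 in the combination. As for BMI1, each library with tazemetostat lay above each without it, and DMSO and AKTi overlapped. The log2 fold change was 0.44 ± 0.08 in EZH2i (adjusted p = 8.80e-06), 0.54 ± 0.08 in the combination (adjusted p = 1.54e-07) and 0.07 ± 0.08 in AKTi (adjusted p = 0.506). PCGF2 is less certain than the others, because CISD3, which codes for an iron-sulphur protein of mitochondria, covers 48.5% of its exonic bases on the opposite strand (GENCODE v44). CISD3 had 29165 counts over all libraries and fell by 1.77 in the combination, whereas the antisense gene AC006449.5, over 13.0% of the bases, was 1.23 higher.

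For BMI1 and CBX6 the sequences are shown because these were the only members with a motif match among the 9 entries, an E-box in each, and they moved unlike each other. Counted from the start, the BMI1 E-box begins at position -70 and that of CBX6 at -121.
BMI1 (upstream start, GRCh38.p14, chr10:22320849-22321098, plus strand): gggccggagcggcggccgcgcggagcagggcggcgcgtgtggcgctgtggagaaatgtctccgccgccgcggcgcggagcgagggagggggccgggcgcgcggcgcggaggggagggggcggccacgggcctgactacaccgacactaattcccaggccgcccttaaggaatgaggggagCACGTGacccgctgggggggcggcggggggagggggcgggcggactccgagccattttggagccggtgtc
CBX6 (only start, GRCh38.p14, chr22:38872217-38872466, minus strand): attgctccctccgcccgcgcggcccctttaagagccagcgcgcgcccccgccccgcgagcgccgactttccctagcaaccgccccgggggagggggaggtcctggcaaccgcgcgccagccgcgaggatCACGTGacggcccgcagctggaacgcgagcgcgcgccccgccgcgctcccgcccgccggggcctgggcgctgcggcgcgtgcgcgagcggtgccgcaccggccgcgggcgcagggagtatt
No entry of any of the 7 members held the E2F-type or FOXO letters. The windows held 28 to 65 CpG dinucleotides, except the upstream PHC1 window with 10 and that of PCGF2 with 2. A match in this window is a description of the letters and was tested for no factor.

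The chromobox readers hold the chromodomain that binds trimethylated lysine 27, and they moved in different directions. CBX2, known for compacting chromatin, was the member that fell most. CBX2 (ENSG00000173894) lies at chr17:79778132-79787983 on the plus strand of hg38. It was at 1083, 1019 and 1061 normalized counts in DMSO and 734, 727 and 885 in AKTi. It was at 700.0, 602 and 650.0 in EZH2i and 461, 537 and 446 in the combination. DMSO lay above all treated libraries, AKTi above EZH2i, and the combination below the rest, with no overlap.

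CBX2 fell by 0.42 in AKTi (SE 0.08, adjusted p = 5.26e-05), by 0.69 in EZH2i (SE 0.08, adjusted p = 2.27e-09) and by 1.11 in the combination (SE 0.08, adjusted p = 1.18e-14), which left 0.463 of the DMSO level. The combination lay below EZH2i by a log2 difference of -0.42 ± 0.08 (adjusted p = 7.49e-05) and below AKTi by -0.69 ± 0.09 (adjusted p = 6.17e-09). The interaction was -0.0028 ± 0.12 (adjusted p = 0.991). EZH2i lay below AKTi by -0.27 ± 0.08 (adjusted p = 0.00721), a call lost with library size alone and without AKTi C (-0.20).

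CBX8, a reader that also has roles in leukaemia with MLL fusion proteins, lies 4149 bases from CBX2 and fell much less. CBX8 (ENSG00000141570) lies at chr17:79792132-79801683 on the minus strand of hg38. It was at 713, 625 and 690.0 normalized counts in DMSO, 728, 716 and 742 in AKTi, 580.0, 532 and 608 in EZH2i, and 555, 560.0 and 570.0 in the combination. Both arms with tazemetostat lay below both arms without it, and overlapped each other. The log2 fold change was -0.23 ± 0.08 in EZH2i (adjusted p = 0.00984) and -0.25 ± 0.08 in the combination (adjusted p = 0.00405), and 0.12 ± 0.08 in AKTi (adjusted p = 0.235). Both calls rest on the scaling: with library size alone they were -0.08 and -0.05, and with upper quartile scaling -0.11 and -0.06, none called, and the EZH2i call was lost without DMSO A (-0.19) or EZH2i B (-0.18). The lower level than in AKTi held under these scalings, at -0.37 ± 0.08 in the combination by the main test (adjusted p = 8.67e-05).

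CBX7, a reader with strong affinity for the mark and known as a repressor of the INK4A locus, was the reader that rose with both drugs. CBX7 (ENSG00000100307) lies at chr22:39120167-39152674 on the minus strand of hg38. It was at 267, 276 and 297 normalized counts in DMSO, 358, 418 and 374 in AKTi, 363, 359 and 354 in EZH2i, and 532, 540.0 and 491 in the combination. The single-agent arms lay above DMSO and overlapped each other, and the combination lay above all. CBX7 rose by 0.46 ± 0.10 in AKTi (adjusted p = 1.48e-04), 0.36 ± 0.09 in EZH2i (adjusted p = 0.00101) and 0.91 ± 0.09 in the combination (adjusted p = 3.62e-11). Its interaction was 0.09 ± 0.13 (adjusted p = 0.670). The antisense gene AL031846.2 covers 17.9% of CBX7 exonic bases, and its counts went from 44 in DMSO to 109 in the combination, against 850 and 1738 of CBX7 itself.

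CBX6, the least studied of these readers, rose with each single agent and was lower with both drugs than with either. CBX6 (ENSG00000183741) lies at chr22:38861450-38872314 on the minus strand of hg38. It was at 3064, 2934 and 3277 normalized counts in DMSO and 3423, 3436 and 3708 in AKTi. It was at 3785, 3602 and 3748 in EZH2i and 2993, 2900.0 and 2883 in the combination. Every single-agent library lay above every library of the other two arms, and the combination overlapped DMSO.

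CBX6 rose by 0.20 ± 0.05 in AKTi (adjusted p = 0.00299) and 0.27 ± 0.05 in EZH2i (adjusted p = 3.21e-05). In the combination it was at -0.06 ± 0.05 against DMSO (adjusted p = 0.313), at -0.26 ± 0.05 against AKTi (adjusted p = 7.91e-05) and at -0.33 ± 0.05 against EZH2i (adjusted p = 2.46e-06). The interaction was -0.53 ± 0.08 (adjusted p = 9.84e-07). The combination against DMSO turned to 0.14 with library size alone and to 0.12 with upper quartile scaling, both called higher, and was called lower without DMSO B (-0.14) or EZH2i A (-0.12), so that no direction is given. The AKTi rise was lost without DMSO B (0.14) or AKTi C (0.14).

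**Figure D2:**
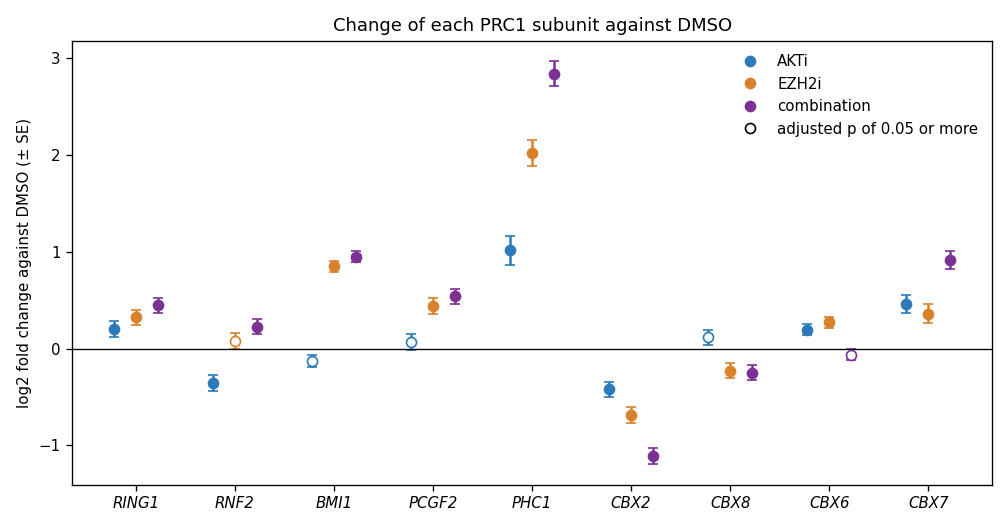
Log2 fold change against DMSO (vertical axis, points ± SE) of each PRC1 subunit gene (horizontal axis) in AKTi, EZH2i and the combination, from edgeR. Filled points had an adjusted p under 0.05 and open points did not. PHC1 stands highest in the combination at 2.84 and CBX2 lowest at -1.11, and CBX6 is positive with each single agent and -0.06 with both, a value whose sign depends on the scaling.

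Between the treated arms, more members were called on adding EZH2i to AKTi than on adding AKTi to EZH2i, and so were more of all genes. All 9 members were called in the combination against AKTi, 6 higher and 3 lower, with 64.2% of all genes called (32.1% higher and 32.1% lower). Against EZH2i 4 were called, PHC1 and CBX7 higher and CBX2 and CBX6 lower, with 46.7% of all genes called (21.1% higher and 25.7% lower). With upper quartile scaling 7 were called, 5 higher and 2 lower, with 46.7% of all genes called (25.4% higher and 21.3% lower). With library size alone, or with a filter of 10 counts in every library, 6 were called, 4 higher and 2 lower. The share of all genes in those last settings is not given here. EZH2i against AKTi directly gave 6 called members, 4 higher and 2 lower, with 50.4% of all genes called (25.4% higher and 25.1% lower), led by PHC1 at 1.01 ± 0.13 and BMI1 at 0.98 ± 0.06. With library size alone that split was 6 higher and 1 lower, with 50.4% of all genes called (30.7% higher and 19.8% lower). The interaction was called for RNF2, BMI1 and CBX6, with 28.2% of all genes called (10.7% higher and 17.5% lower).

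Levels per length, in RPKM (counts scaled by library size, its TMM factor and gene length), put the members in order within an arm. In DMSO the order was RING1 (28.0), CBX6 (23.6), BMI1 (15.1), CBX2 (11.4), CBX8 (9.94), PCGF2 (9.75), RNF2 (8.30), CBX7 (2.30) and PHC1 (0.705). CBX8 and PCGF2 overlapped between libraries, and all other neighbours in the order did not. In the combination the order was RING1 (38.3), BMI1 (29.2), CBX6 (22.6), PCGF2 (14.2), RNF2 (9.71), CBX8 (8.37), CBX2 (5.25), PHC1 (5.10) and CBX7 (4.33), where CBX2 and PHC1 overlapped. PHC1 went from percentile 23.4 of the tested genes by this level in DMSO to percentile 57.6 in the combination, and CBX2 from 74.0 to 58.3.

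Since subunits of one family take the same place in PRC1, their ratio within a library shows the make-up of the mRNA pool without any scaling between libraries. The ratio of CBX2 to CBX7 was 5.32, 4.84 and 4.69 in DMSO and 2.69, 2.28 and 3.11 in AKTi. It was 2.53, 2.20 and 2.41 in EZH2i and 1.14, 1.31 and 1.19 in the combination. CBX2 thus went from a several-fold excess over CBX7 to near parity, and neither single agent's range reached DMSO or the combination. The ratio of PHC1 to PHC2 had a geometric mean of 0.0522 in DMSO, 0.0917 with AKTi, 0.149 with EZH2i and 0.273 with both, with no overlap between arms.

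The ratio of BMI1 to PCGF2 was 1.55 in DMSO and 1.35 in AKTi but 2.06 in EZH2i and 2.07 in the combination. The overlap of CISD3 with PCGF2 can bear on this ratio, on the PCGF2 levels above and on the summed PCGF level below. Its part in them was not tested. The ratio of RNF2 to RING1 was 0.297 in DMSO, 0.201 with AKTi, 0.250 with EZH2i and 0.253 with both, and only AKTi did not overlap DMSO. CBX8 to CBX2 was 0.875 in DMSO and 1.60 in the combination, so that CBX8, the lower of both in DMSO, was the higher in the treated arms. Of 30 comparisons of these 5 ratios between pairs of arms, 24 had no overlap, each with the smallest two-sided p that an exact permutation test of 3 against 3 allows, 0.10 (0.125 adjusted over the 30). No such count was taken for ratios of other genes, so this count cannot be read as particular to PRC1.

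**Figure D3:**
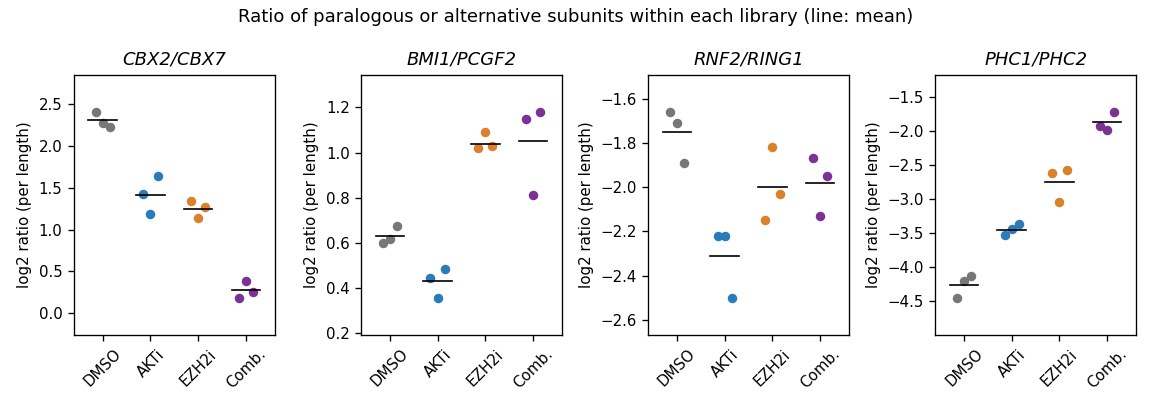
Log2 ratio per length of 4 pairs of alternative PRC1 subunits (vertical axes, each with its own range) in the libraries of the DMSO, AKTi, EZH2i and combination arms (horizontal axis). Points are replicates A, B and C and lines are means. The mean log2 ratio of CBX2 to CBX7 goes from 2.31 in DMSO to 0.27 in the combination, and that of PHC1 to PHC2 from -4.26 to -1.87.

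As a share of the summed level of PHC1, PHC2 and PHC3, PHC1 held 4.05% ± 0.43 in DMSO and 17.5% ± 1.1 in the combination (SD, n = 3). The sum itself was 17.4 ± 0.3 RPKM in DMSO and 29.2 ± 0.4 in the combination, with no overlap. BMI1 held 29.8% ± 1.1 of the summed PCGF level in DMSO, 29.1% ± 0.1 with AKTi, 40.0% ± 0.5 with EZH2i and 41.3% ± 1.6 with both drugs.

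The other canonical PRC1 subunits were divided. In the combination 2 of 6 were higher, 3 lower and 1 not called, with a median log2 fold change of -0.09 (3 higher, 2 lower and a median of 0.11 with library size alone). SCML2 and SCML1, Sex comb on midleg proteins that associate with PRC1, fell by 2.26 and 1.70, SCML2 from 703 ± 37 normalized counts in DMSO to 145 ± 9 in the combination. PHC3, the third polyhomeotic gene, rose by 0.73, and was at 0.06 in EZH2i (adjusted p = 0.486). PHC2 rose by 0.48.

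Variant PRC1, which carries RYBP or YAF2 in place of a CBX reader and does not need the lysine 27 mark, had 9 of 23 genes higher, 13 lower and 1 not called in the combination, with a median of -0.36 (9 higher, 11 lower and -0.17 with library size alone). AUTS2, which joins complexes with PCGF3 or PCGF5 that can activate genes, rose by 2.96 ± 0.13 in the combination and 2.76 ± 0.13 in EZH2i, from 71.2 ± 12.9 normalized counts in DMSO to 488 ± 54 in EZH2i and 554 ± 26 in the combination. TFDP1, the E2F dimer partner in the PCGF6 complex, fell by 1.64 and WDR5, a WD40 scaffold shared with other chromatin complexes, fell by 1.22. AUTS2 among the variant genes and PHC1 among the members rose most. For AUTS2 the combination did not differ from EZH2i by the test (0.20 ± 0.10, adjusted p = 0.123), whereas for PHC1 it did.

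A list of histone H2A deubiquitinases and their partner proteins had 5 of 11 tested genes higher, 5 lower and 1 not called in the combination. Its median was -0.06 (5 higher, 3 lower and 0.13 with library size alone). MBD6 and MBD5, methyl-CpG binding domain proteins of the BAP1 complex, rose by 1.41 and 0.92, and FOXK2, its forkhead partner, fell by 0.64. The HP1 proteins, chromobox readers of lysine 9 methylation, had 0 of 3 higher, 2 lower and 1 not called (1 higher and 2 lower with library size alone), CBX3 at -0.95 and CBX5 at -0.53. Of the PRC2 core, 1 of 6 was higher and 5 lower: EZH2 fell by 1.73, from 1237 ± 51 normalized counts to 366 ± 5, RBBP7, a histone chaperone, fell by 1.18, and EZH1, the alternative methyltransferase, rose by 1.07. Tazemetostat acts on the EZH2 enzyme, so its mRNA is no check of the drug.

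At the INK4 locus, a classical target of BMI1 and CBX7, CDKN2B rose by 1.86 in the combination and 2.0 in EZH2i, from 24.0 ± 4.7 normalized counts in DMSO. CDKN2A, which codes for p16 and ARF, fell by 0.58 in the combination, from 614 ± 24 to 404 ± 13. The locus therefore held 1 gene that rose and 1 that fell while BMI1 and CBX7 were both higher. All 12 of a list of proliferation genes fell in the combination, with a median of -3.16, led by RRM2 at -5.10, CDK1 at -4.35 and E2F1 at -3.95. Their summed level was 2590 to 2650 CPM in DMSO, 1050 to 1080 with AKTi, 1180 to 1250 with EZH2i and 282 to 292 with both. The part of this shift in the levels of the PRC1 genes was not tested.

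**Figure D4:**
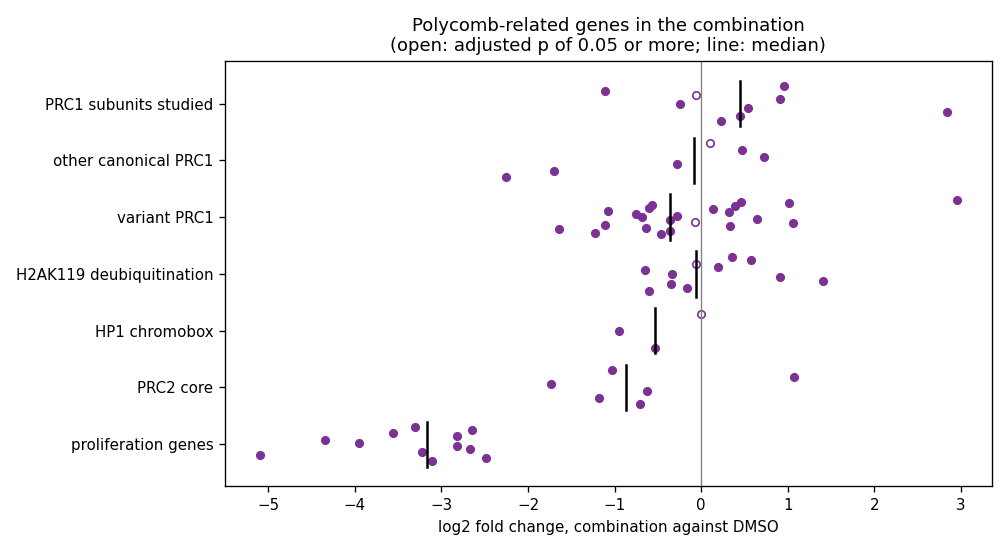
Log2 fold change of each tested gene in the combination against DMSO (horizontal axis) for the PRC1 subunits studied and 6 related lists (vertical axis). Filled points had an adjusted p under 0.05, open points did not, and black lines are list medians. The studied subunits have a median of 0.45 with PHC1 far right, while the PRC2 core has a median of -0.87 and the proliferation genes of -3.16.

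The protein-coding genes most like each member over the 12 libraries were named by Pearson's r of log2 CPM, as a description, since the libraries fall into 4 arms and a gene that follows the arms correlates with many others. PHC1 was most like RRAGD (0.996), RNF144A (0.994) and GRIN3A (0.993), with 1680 genes above 0.9. BMI1 was most like RASSF8 (0.995), CEMIP2 (0.995) and HIST1H2BC (0.994), with 960 above 0.9, and CBX2 most like PSMB6 (0.987), MON1A (0.986) and TOR3A (0.985), with 1840. CBX7 was most like CREBRF (0.983), CYHR1 (0.983) and MAP7D1 (0.982), PCGF2 most like PLXND1, DUSP1 and CSRNP2 (0.966 to 0.970), and CBX8 most like PTDSS2, HAGHL and TRMT2A (0.955 to 0.975). Few genes followed the courses of CBX6 (19 above 0.9, led by CHPF2 at 0.957, CTTN and TSPYL1), RNF2 (28, led by RGS3 at 0.971, HIST1H2AC and TSPAN13) and RING1 (71, led by PRX at 0.952, SMAD7 and PCDHGA12).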

How the data were processed

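The 12 libraries, 3 from each arm, were sequenced from polyA RNA. Per the labels, the reads were aligned to hg38 with STAR and counted with HTSeq by the authors; versions, annotation and strand setting are not given in the sources used here. The deposited table of raw counts lists 58735 genes with their lengths. A second deposited table holds a signal, the counts that the authors normalized with DESeq2, which were checked to equal the raw counts up to 1 constant in each library and are printed as normalized counts.

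Counts were tested in R 4.3.3 with edgeR 4.0.16, after filterByExpr at a minimum of 10 counts and a total of 15, with TMM scaling, 1 mean per arm over all 12 libraries, quasi-likelihood test, Benjamini-Hochberg adjustment, threshold 0.05. The interaction subtracts both single-agent effects from the effect of the combination, on the log2 scale. The scripts were tested on simulated data. Levels per length used the gene length column. Alternatives were DESeq2 1.42.0, 3 other scalings, 2 filters, the 6 compared libraries alone, the replicate letter as a block, and each library left out. Same-letter libraries of different arms had deviations correlated at -0.058 to 0.069 over 18 pairs, so the letters were not taken to pair them. Totals of 14133755 to 22276417 counts make sampling noise small for all members but PHC1 in DMSO (56 to 98 counts).

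All 9 members and up to 3 genes per list, those called with the largest change in the combination, were named, and for each member the 3 most correlated protein-coding genes. PHC2, the overlapping and neighbouring genes and the pseudogene were named for their place beside a member. The members and lists were chosen with earlier results of these data known. Exon overlaps are from GENCODE v44 and identities from BLAST 2.17.0.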

Additional observations from a re-analysis of the deposited data

Results flagged for a closer look

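For 3 of the 9 PRC1 genes the effect of ipatasertib differed with and without tazemetostat, by the interaction term of edgeR's quasi-likelihood test. For CBX6 the difference was -0.531 on the log2 scale (adjusted p = 9.84e-07): ipatasertib raised it by 0.20 without tazemetostat, and with tazemetostat it stood at -0.33. For RNF2 it was 0.505 (adjusted p = 8.27e-04): the change was -0.35 without tazemetostat and 0.15 with it, the latter not called, though called at 0.18 to 0.22 in 3 alternatives. For BMI1 it was 0.231 (adjusted p = 0.0388), from -0.13 without to 0.10 with tazemetostat, neither called, and this call was lost in 9 of 19 alternatives. Of all tested genes, 28.2% were called for this term. With 3 libraries per arm, single libraries were not examined for extreme values.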

How the results depend on the processing

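Of 1251 alternative values of the members' differences, 1177 kept their direction and their side of the threshold, 33 lost a call, 17 gained one and 24 changed sign. The count of members called in the combination against EZH2i went from 4 to 7 with upper quartile scaling, and the counts in the other 6 comparisons stayed within 1.5 times. With the replicate letter as a block, which the correlations do not support as a pairing, the members called numbered 6 with AKTi, 8 with EZH2i and 8 with both against DMSO, as without it. The share of all genes called in that fit is not given here, so these counts have no comparator. The cause of the following sign changes was not tested. The CBX2 interaction was 0.0037 with DESeq2, 0.0041 with upper quartile scaling, 0.0039 with DESeq2 size factors in edgeR, 0.028 with at least 10 counts in every library, and -0.093 to 0.12 with single libraries left out. CBX6 in the combination against DMSO was 0.14 with library size alone, 0.12 with upper quartile scaling and 0.0077 with at least 10 counts in every library. CBX8 in the combination against EZH2i was 0.029 with library size alone, 0.043 with upper quartile scaling, 0.011 with at least 10 counts in every library, 0.00014 with only the 6 libraries compared, and -0.080 to 0.045 with libraries left out. Leaving out libraries gave -0.067 to 0.096 for the PCGF2 interaction, -0.0055 to 0.19 for RING1 in EZH2i against AKTi and -0.15 to 0.020 for the RING1 interaction. Differences among low counts are less certain for PHC1 in DMSO than for the other members.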

Other observations

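Genes next to the members in the files were mixed, some moving with their member and others not. SPAG6, 13961 bases from BMI1, rose by 1.58 in EZH2i and 1.67 in the combination, and BMI1 rose in both arms too. SPAG6 had only 10 to 52 counts summed per arm. In the combination VPS52, 37550 bases from RING1, rose by 0.30, and TRMT1L, 15490 bases from RNF2, rose by 0.24. NPTXR, a neuronal pentraxin receptor gene 17468 bases from CBX6, rose by 2.15 in EZH2i and 2.07 in the combination. FAM129A, 70814 bases from RNF2, rose by 1.86 in the combination and fell by 0.50 in AKTi. Its raw counts summed per arm were 2972 in DMSO, 1794 with AKTi, 3020 with EZH2i and 11671 with both. HSD17B8, a steroid dehydrogenase gene 1664 bases from RING1, fell by 1.09 in the combination, and PSMB3, a proteasome subunit gene 2919 bases from PCGF2, fell by 1.47. MLLT6, 4094 bases from PCGF2 on its other side, rose by 0.58. A2ML1, 26895 bases from PHC1, fell by 1.18 in AKTi, rose by 0.90 in EZH2i and fell by 0.95 in the combination.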
